A study of Mus musculus with 8 samples.

Results

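Claudins are the membrane proteins that set which ions pass between the cells of an epithelium, and 10 of them with known places along the mouse nephron are described here: Cldn1, Cldn2, Cldn3, Cldn4, Cldn7, Cldn8, Cldn10, Cldn14, Cldn16 and Cldn19. They were chosen by symbol, through the Ensembl identifier of each count row, and make up 10 of the 37583 gene rows. The data are RNA-seq read counts of whole kidneys from 8 mice. In 4 of them, genotype b-actinCreERT2+TFAP2Bfl/fl and labelled knockout, Tfap2b carries floxed alleles beside an inducible Cre recombinase driven by a beta-actin promoter. The other 4 are control littermates labelled WT, and are called wildtype here. A beta-actin promoter is active in most cell types, so the Cre was not limited to the nephron. The sources used here do not give the age of the mice, the inducing treatment, its timing, or whether the control mice carried the Cre or a floxed allele.

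A claudin spans the membrane several times, and its extracellular loops meet those of claudins on the next cell in the tight junction, where they form either a seal or a pore selective for charge. In the proximal tubule Cldn2 forms a pore for small cations and water and an isoform of Cldn10 a pore for anions. In the thick ascending limb another isoform of Cldn10 carries sodium, while Cldn16 and Cldn19 act together in the reabsorption of calcium and magnesium and Cldn14 blocks that path under control of the calcium-sensing receptor. Cldn3, Cldn4, Cldn7 and Cldn8 belong to the tighter distal nephron and collecting duct, and Cldn1 marks the parietal epithelium of Bowman's capsule. Tfap2b codes for AP-2 beta, a DNA-binding factor needed for the distal tubule to form, and the question addressed is which kidney transcripts differ when it is deleted.

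The promoter windows of 5 members are shown because these genes are the pairs set against each other below. They are Cldn16 and Cldn19, which work as partners, Cldn3 and Cldn4, which are neighbours on the chromosome, and Cldn10 with its 2 annotated start sites. Cldn19 also has 2 listed windows, which overlap, and only the more upstream is shown. Each window runs from 250 bases before to 50 bases after a RefSeq start site (build GRCm38.p6), 5′ to 3′ on the gene's strand, and capitals mark a match to the AP-2 palindrome GCCNNNGGC.
Cldn16, chr16:26462885-26463184 (+ strand): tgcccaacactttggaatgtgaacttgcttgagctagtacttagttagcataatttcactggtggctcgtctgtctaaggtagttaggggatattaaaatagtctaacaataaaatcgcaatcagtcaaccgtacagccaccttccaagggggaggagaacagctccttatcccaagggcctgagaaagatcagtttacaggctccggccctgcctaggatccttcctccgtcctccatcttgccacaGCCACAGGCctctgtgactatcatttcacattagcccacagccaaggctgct
Cldn19, chr4:119255191-119255490 (+ strand): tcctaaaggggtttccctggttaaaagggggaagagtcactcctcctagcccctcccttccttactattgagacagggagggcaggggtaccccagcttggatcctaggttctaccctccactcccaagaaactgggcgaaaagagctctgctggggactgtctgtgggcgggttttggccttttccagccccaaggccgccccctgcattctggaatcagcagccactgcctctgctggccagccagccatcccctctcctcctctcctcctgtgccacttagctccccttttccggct
Cldn3, chr5:134985964-134986263 (+ strand): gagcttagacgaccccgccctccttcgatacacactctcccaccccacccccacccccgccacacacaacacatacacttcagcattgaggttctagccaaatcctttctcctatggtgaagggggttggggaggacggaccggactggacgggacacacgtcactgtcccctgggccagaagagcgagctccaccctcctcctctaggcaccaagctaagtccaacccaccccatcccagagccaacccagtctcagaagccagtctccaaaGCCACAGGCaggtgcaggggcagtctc
Cldn4, chr5:134946885-134947184 (- strand): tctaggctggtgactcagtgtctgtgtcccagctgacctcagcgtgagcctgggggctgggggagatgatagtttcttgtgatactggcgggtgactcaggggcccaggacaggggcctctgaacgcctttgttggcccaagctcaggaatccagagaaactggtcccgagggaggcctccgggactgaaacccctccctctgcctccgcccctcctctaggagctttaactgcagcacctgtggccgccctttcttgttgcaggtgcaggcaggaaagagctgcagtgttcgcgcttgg
Cldn10, upstream start, chr14:118787621-118787920 (+ strand): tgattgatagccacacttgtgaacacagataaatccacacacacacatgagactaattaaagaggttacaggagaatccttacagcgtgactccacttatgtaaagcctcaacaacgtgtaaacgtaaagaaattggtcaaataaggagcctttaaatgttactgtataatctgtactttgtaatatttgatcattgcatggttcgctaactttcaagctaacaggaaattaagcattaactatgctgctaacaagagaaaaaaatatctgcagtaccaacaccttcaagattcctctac
Cldn10, downstream start, chr14:118854700-118854999 (+ strand): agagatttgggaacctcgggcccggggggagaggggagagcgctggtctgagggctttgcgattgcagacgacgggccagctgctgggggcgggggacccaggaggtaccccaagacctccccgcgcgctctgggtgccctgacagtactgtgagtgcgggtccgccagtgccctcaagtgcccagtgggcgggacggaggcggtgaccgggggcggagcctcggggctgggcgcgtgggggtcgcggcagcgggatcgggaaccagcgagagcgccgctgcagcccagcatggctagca

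The letters GCCNNNGGC, which read the same on both strands, are the textbook recognition sequence of AP-2 factors. Of the 14 windows listed for 9 members, 2 held a match, in both cases GCCACAGGC. In Cldn16 it began 2 bases before the start base (offset -2), and in Cldn3 at offset 23, inside the transcript. Of all 32851 windows in the same table, 16.6% held at least 1 match. The Grainyhead-type sequence AACCNGTT, searched on both strands and not overlapping the AP-2 letters, was in none of the 14 windows and in 2.09% of all windows. No window was listed for Cldn8. The windows of Cldn10 differ widely in base composition, with 36% G and C at the upstream start and 72% at the downstream start. Reads were counted over the whole gene, so the transcripts from the 2 start sites cannot be told apart in what follows.

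Gene counts came to 13435113 to 17930347 per library. The targeted gene, Tfap2b, stood at 238.1, 266.5, 237.0 and 240.3 CPM (read counts relative to the library total, scaled by TMM factors, which align the bulk of genes between libraries) under the knockout label and at 94.3, 104.9, 110.5 and 102.8 CPM under the wildtype label. Its whole-gene counts were thus higher under the knockout label (1.25 ± 0.0741 (SE) on the log2 scale, adjusted p = 4.18e-06 by edgeR), and, as they take in exons beyond any deleted segment, they cannot show whether the deletion happened. Directions are therefore given by label throughout. Proximal tubule markers summed to at least 11970 CPM in every library, as a kidney sample should show. In knockout 4, 8 adrenal cortex genes had a summed level of 241.8 CPM, where the remaining 7 libraries had 6.30 to 8.88 CPM, and each call described below that ended without that library is given with its value. The clock score of a library, which subtracts the average log2 CPM of activators of the circadian clock from that of its output genes, was -0.43 ± 1.11 under the knockout label and 1.87 ± 1.16 under the wildtype label (SD, n = 4 each, exact permutation p = 0.0571).

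All 10 claudins passed the filter on low counts. By edgeR's quasi-likelihood test with Benjamini-Hochberg adjustment over 15228 genes and a threshold of 0.05, 3 rose and 3 fell under the knockout label, where 6.23% of all genes tested rose and 5.7% fell. The fallers were Cldn16 of the thick ascending limb, Cldn10 of the thick ascending limb and proximal tubule, and Cldn2 of the proximal tubule. The risers were Cldn4, Cldn7 and Cldn8 of the distal nephron and collecting duct. Cldn1, Cldn3, Cldn14 and Cldn19 did not pass. The CPM of the 2 groups did not overlap for 5 of the 10, against 18.5% of all genes tested. In whole kidney, fewer cells of a type and less RNA per cell cannot be told apart. Nothing in the labels says that libraries of a group came from separate litters or days, and the p-values measure the spread between these libraries.

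**Figure D1:**
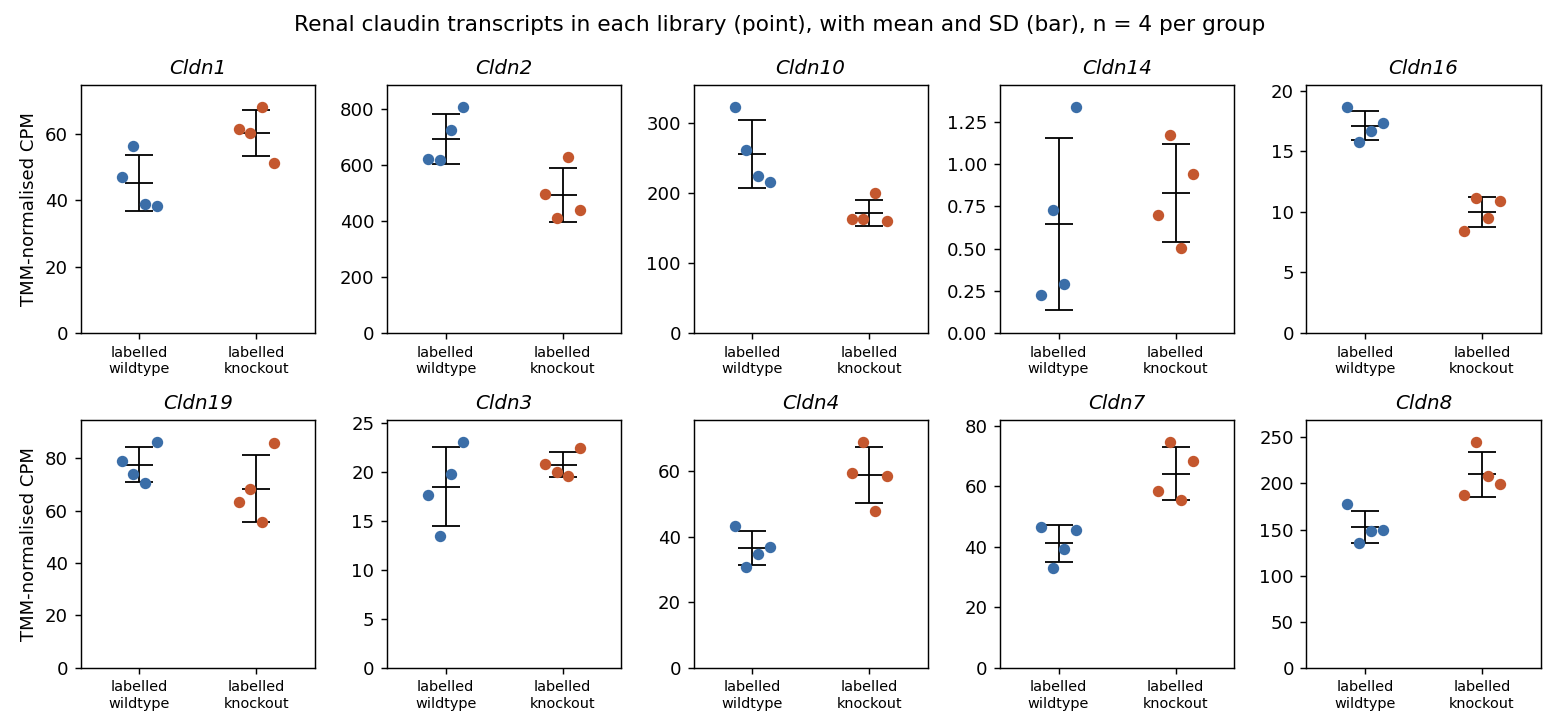
TMM-normalised CPM (y axis, from 0) of each claudin in each library, labelled wildtype (blue) and labelled knockout (orange), with black marks for the mean and SD of 4 libraries. The groups are apart for Cldn16, Cldn10, Cldn4, Cldn7 and Cldn8, while Cldn2 overlaps through knockout 3 at 627.9 CPM.

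Cldn16, the paracellular divalent cation claudin of the thick ascending limb, fell furthest among the 10. It stood at 8.42, 11.1, 9.51 and 10.9 CPM under the knockout label and at 18.6, 15.8, 16.7 and 17.3 CPM under the wildtype label. The highest of the former lay below the lowest of the latter. The log2 fold change was -0.78 ± 0.115 (SE, edgeR adjusted p = 0.0018), so that its level fell by 41.6%, resting on 655 and 1035 reads over the 4 libraries of each group. Cldn16 was also the only member called under all 18 other settings, with log2 fold changes of -0.96 to -0.67.

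Cldn19, with which Cldn16 assembles, did not follow it. It was measured at 63.5, 68.4, 55.8 and 85.9 CPM under the knockout label and at 79.0, 74.1, 70.8 and 86.2 CPM under the wildtype label. The ranges overlapped only through knockout 4, which lay just under the highest library labelled wildtype. The log2 fold change was -0.18 ± 0.121 (SE, edgeR adjusted p = 0.367), and without knockout 4 it was -0.31 (adjusted p = 0.0813).

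Taken as a ratio within each library, which does not depend on how libraries are scaled, Cldn16 lay 2.17 ± 0.115 log2 CPM units below Cldn19 under the wildtype label and 2.75 ± 0.211 units below it under the knockout label (SD, n = 4 each). These are differences of read counts, not of molecules, because the genes differ in length. The groups did not overlap, and the ratio differed by -0.58 (exact two-sided permutation p = 0.0286, the smallest the design allows, and 0.152 adjusted over the 16 ratios tested).

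Cldn10, present in both the proximal tubule and the thick ascending limb, fell as well. It stood at 163.2, 162.7, 199.1 and 159.6 CPM under the knockout label and at 321.8, 261.3, 224.0 and 215.5 CPM under the wildtype label. All 4 of the former were below all 4 of the latter, although knockout 3 came near wildtype 4. The log2 fold change was -0.58 ± 0.128 (SE, edgeR adjusted p = 0.0157). The call ended without knockout 2 (adjusted p = 0.0545) and without knockout 4 (adjusted p = 0.0521).

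Cldn14, which opposes Cldn16 and Cldn19, was close to the limit of detection. Its counts were 12, 20, 9 and 13 reads under the knockout label and 3, 10, 5 and 22 reads under the wildtype label. The spread within the wildtype label covered all 4 libraries labelled knockout, and a difference was not detectable at this depth (log2 fold change 0.33 ± 0.508 (SE), edgeR adjusted p = 0.721). Casr, the calcium-sensing receptor of the thick ascending limb, fell by 1.37 ± 0.220 (SE) on the log2 scale (edgeR adjusted p = 0.0057). Casr is named here after its value was seen.

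The marker list of the thick ascending limb and its macula densa, which holds no claudin, has 12 genes. Of these, 6 fell and 1, Tmem207, rose by edgeR (58.3% called, against 11.9% of all genes tested). The list ran both ways, with 4 rising and 6 falling at an unadjusted p under 0.05, 2 rising with DESeq2, 1 rising with limma voom and a median log2 fold change of -0.29 in a range of -1.37 to 0.89. The 4 genes with the smallest adjusted p all fell. On the log2 scale, the uromodulin gene Umod fell by 1.01 ± 0.122 (SE), the chloride channel subunit Bsnd by 1.07 ± 0.0873, the prostaglandin receptor Ptger3 by 0.91 ± 0.111 and the potassium channel Kcnj1 by 0.66 ± 0.115. The summed level of the list was 5848 to 6605 CPM under the knockout label and 9558 to 11890 CPM under the wildtype label, of which Umod made up most in every library. The mean log2 CPM of these markers counts each gene alike and takes in those that rose as well as those that fell. Of the 4 named, Umod, Bsnd and Ptger3 fell further than Cldn16 (-0.78), and Kcnj1 fell less. Measured against that mean in the same library, Cldn16 was lower under the knockout label (-2.60 ± 0.175 against -2.12 ± 0.123, SD, n = 4 each, exact permutation p = 0.0286, 0.152 adjusted over 16 ratios). The same measure for Cldn19 was 0.15 ± 0.305 against 0.05 ± 0.129 (exact permutation p = 0.8), and for Cldn10 1.49 ± 0.156 against 1.76 ± 0.343 (exact permutation p = 0.229).

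Cldn2, the cation and water pore of the proximal tubule and thin descending limb, had the highest level per length of the 10 in every library. It was measured at 497.4, 409.5, 627.9 and 439.6 CPM under the knockout label and at 621.7, 617.8, 725.6 and 805.0 CPM under the wildtype label. Knockout 3 exceeded wildtype 1 and wildtype 2. The log2 fold change was -0.49 ± 0.139 (SE, edgeR adjusted p = 0.0441; exact permutation p = 0.0857). This call was the nearest to the threshold, and it passed in 7 of the 18 other settings and in 1 of the 8 that leave out a library, the one without knockout 3 (adjusted p = 0.0102). Without knockout 4 its adjusted p was 0.119.

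Proximal tubule markers moved the same way, with 5 of 12 falling and 0 rising by edgeR, where 5.7% of all genes fell. At an unadjusted p under 0.05, or with DESeq2 or limma voom, 0 rose. On the log2 scale, the sodium glucose transporter Slc5a2 fell by 1.30 ± 0.233 (SE), the endocytic receptor Lrp2 by 0.68 ± 0.167, the phosphate transporter Slc34a1 by 0.65 ± 0.176 and the transcription factor Hnf4a by 0.39 ± 0.110. Without knockout 4, Lrp2, Slc34a1 and Hnf4a were not called (adjusted p = 0.063, 0.0997 and 0.0721). Relative to the mean of these markers, Cldn2 lay at -0.71 ± 0.186 log2 units under the knockout label and -0.78 ± 0.268 under the wildtype label (SD, n = 4 each, exact permutation p = 0.686). Cldn10 lay at -2.23 ± 0.275 and -2.22 ± 0.283 on that measure (exact permutation p = 1). The log2 ratio of Cldn2 to Cldn10 was 1.51 ± 0.147 and 1.45 ± 0.431 (exact permutation p = 0.8).

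Of the 4 distal claudins, Cldn4, Cldn7 and Cldn8 rose and Cldn3 did not pass. Cldn4, a claudin of the collecting duct chloride pathway, was at 59.6, 68.9, 47.9 and 58.7 CPM under the knockout label and at 43.4, 30.9, 34.8 and 37.0 CPM under the wildtype label. Its log2 fold change was 0.69 ± 0.124 (SE, edgeR adjusted p = 0.00548), a 1.61-fold rise. The lowest library labelled knockout, knockout 3, stayed above the highest labelled wildtype, wildtype 1.

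Cldn7, found on the lateral membrane of distal epithelia as well as in junctions, was at 58.5, 74.5, 55.3 and 68.4 CPM under the knockout label and at 46.4, 33.1, 39.4 and 45.4 CPM under the wildtype label. It rose 1.56-fold (log2 fold change 0.64 ± 0.124 (SE), edgeR adjusted p = 0.00796). The ranges did not meet, and knockout 2 was the highest library for both Cldn4 and Cldn7.

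Cldn8, the partner that brings Cldn4 to the collecting duct junction, had the highest level per length of the distal claudins. It stood at 187.8, 244.7, 208.2 and 199.5 CPM under the knockout label and at 177.3, 135.1, 148.9 and 149.3 CPM under the wildtype label. It rose 1.38-fold (log2 fold change 0.46 ± 0.103 (SE), edgeR adjusted p = 0.0154). The gap between knockout 1 and wildtype 1 was the narrowest between the groups.

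Cldn3, expressed from the thin ascending limb to the collecting duct, did not rise with them. It was measured at 20.9, 20.02, 19.6 and 22.5 CPM under the knockout label and at 17.7, 13.4, 19.9 and 23.1 CPM under the wildtype label. The libraries labelled knockout all lay within the wider range of the others (log2 fold change 0.16 ± 0.142 (SE), edgeR adjusted p = 0.514). The log2 ratio of Cldn7 to Cldn3 was 1.62 ± 0.190 under the knockout label and 1.16 ± 0.211 under the wildtype label, with no overlap (SD, n = 4 each, exact permutation p = 0.0286, 0.152 adjusted over 16 ratios). That of Cldn8 to Cldn4 was 1.84 ± 0.197 and 2.06 ± 0.0540 (exact permutation p = 0.114).

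Most principal cell markers were higher as well. Of 10 tested, 7 rose, where 6.23% of all genes rose, and 0 fell by edgeR (1 fell at an unadjusted p under 0.05, 1 with DESeq2 and 0 with limma voom). The median log2 fold change was 0.57 in a range of -1.39 to 1.18. The gene at the low end is part of the marker mean used below. The sodium channel subunits Scnn1b and Scnn1g had log2 fold changes of 0.66 ± 0.0958 and 0.56 ± 0.077 (SE), the water channel Aqp3 1.18 ± 0.205 and the transcription factor Gata3 0.57 ± 0.110. Set against the mean of these markers, Cldn8 lay at 0.68 ± 0.0630 log2 units under the knockout label and 0.59 ± 0.160 under the wildtype label (SD, n = 4 each, exact permutation p = 0.343). Cldn4 lay at -1.16 ± 0.199 and -1.48 ± 0.196, and Cldn7 at -1.03 ± 0.118 and -1.31 ± 0.216 (exact permutation p = 0.0857 for each). Cldn3 lay at -2.65 ± 0.205 and -2.47 ± 0.285 (exact permutation p = 0.4).

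Several marker lists of other cells moved beside the distal claudins. Over all genes tested, 6.23% rose and 5.7% fell. Of 14 tubular injury genes, 9 rose and 0 fell by edgeR (1 fell at an unadjusted p under 0.05, 1 with DESeq2 and 0 with limma voom), and the list summed to 3947 to 4714 CPM under the knockout label and 2604 to 3429 CPM under the wildtype label. Of 9 urothelial genes, 2 rose and 0 fell (1 fell at an unadjusted p under 0.05, 0 with DESeq2 and 0 with limma voom). The urothelial sums, 60.5 to 80.3 CPM and 55.0 to 80.3 CPM, overlapped over most of their range. Of 12 intercalated cell markers, 7 rose and 0 fell (0 at an unadjusted p under 0.05, 0 with DESeq2 and 0 with limma voom), with sums of 1805 to 2191 CPM and 1116 to 1295 CPM. Of 9 macrophage genes, 8 rose and 0 fell (0 at an unadjusted p under 0.05, 0 with DESeq2 and 0 with limma voom), with sums of 322.2 to 532.2 CPM and 176.3 to 222.4 CPM. Distal convoluted tubule markers went the other way from Cldn4, Cldn7 and Cldn8: 10 of 12 fell and 0 rose (0 at an unadjusted p under 0.05, 0 with DESeq2 and 0 with limma voom), with sums of 3252 to 3647 CPM and 7536 to 7846 CPM. No gene of these 5 lists was at 0 in all libraries, and the part of these changes in the rise of Cldn4, Cldn7 and Cldn8 was not tested.

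Calls were lost in 2 settings added after seeing the data. With the clock score as a term, the log2 fold changes were 0.61 for Cldn4 (edgeR adjusted p = 0.106), 0.52 for Cldn7 (0.17) and 0.25 for Cldn8 (0.338). Cldn2 at -0.42 (0.35) was not called either, while Cldn16 at -0.96 (0.0116) and Cldn10 at -0.88 (0.00812) passed. The score itself averaged -0.43 under the knockout label and 1.87 under the wildtype label, so score and label overlap in part. The part of the clock in the lost calls was not tested. Without knockout libraries 1 and 4, Cldn16 and Cldn8 passed, Cldn4 and Cldn7 had 0.68 and 0.66 (adjusted p = 0.0551 and 0.0510), and Cldn10 and Cldn2 had -0.50 and -0.42 (adjusted p = 0.139 and 0.236).

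**Figure D2:**
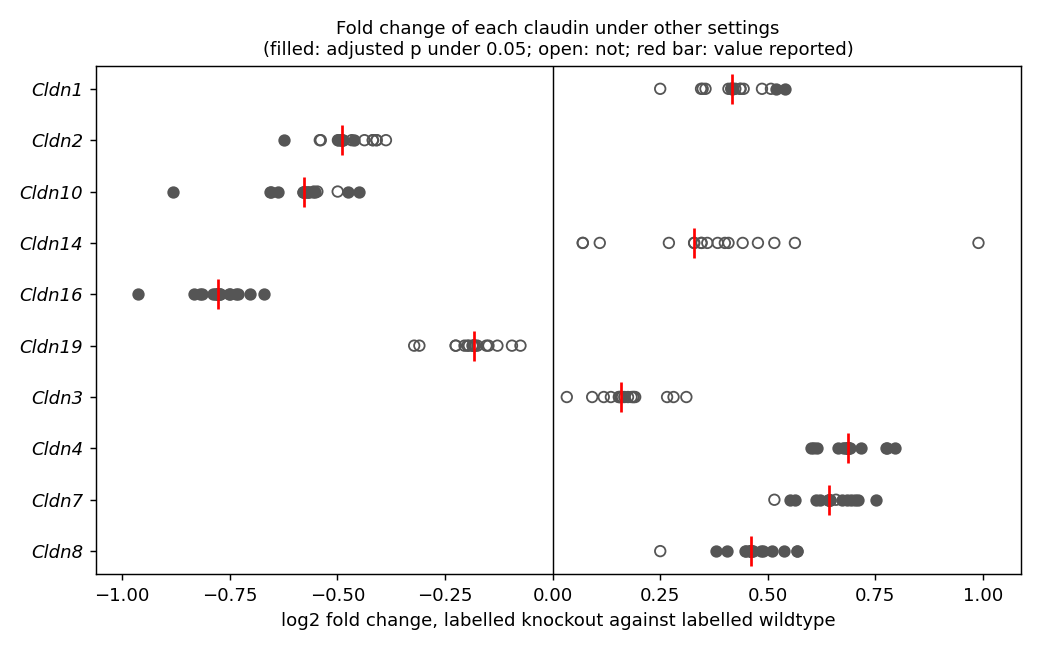
Log2 fold change (x axis) of each claudin under the other settings (circles, filled where the adjusted p was under 0.05) and as reported (red bar). Each claudin stayed on 1 side of 0 in every setting tried, and Cldn16 was called in all 18.

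Cldn1, which in kidney marks the parietal cells of Bowman's capsule, was at 61.4, 60.4, 68.0 and 51.1 CPM under the knockout label and at 47.2, 56.4, 38.8 and 38.4 CPM under the wildtype label. Wildtype 2 lay above knockout 4, so the ranges overlapped. The log2 fold change of 0.42 ± 0.130 (SE) just missed the threshold (edgeR adjusted p = 0.0634). It passed with DESeq2 (0.0273), with library totals only (0.0241) and without wildtype 2 (0.0165). Of 6 podocyte markers, which come from the same glomeruli, 2 fell, where 5.7% of all genes fell, and 0 rose by edgeR (1 rose at an unadjusted p under 0.05, 0 with DESeq2 and 0 with limma voom).

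**Figure D3:**
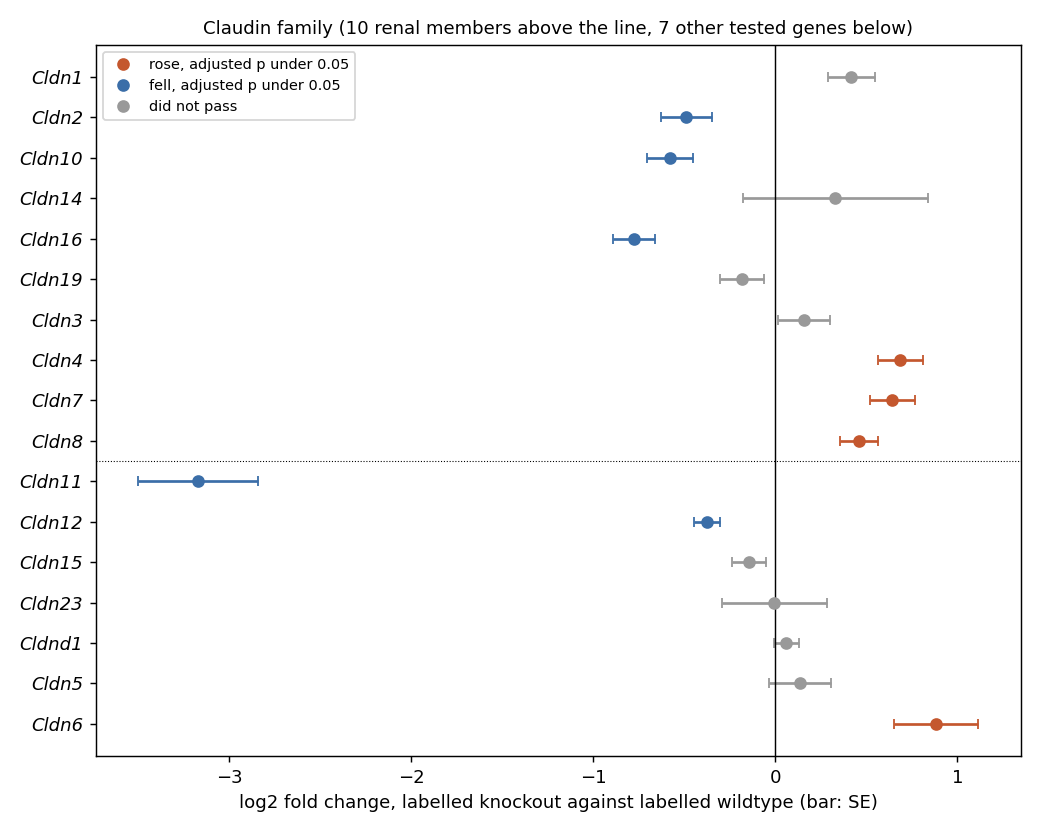
Log2 fold change (x axis, with SE bars) of the 10 renal claudins above the dotted line and of 7 other tested claudin family genes below it, coloured by call. The largest change is that of Cldn11 at -3.17, followed by Cldn6 at 0.88 and Cldn16 at -0.78.

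Of the 15 other claudin and claudin-domain genes with a row, 7 passed the filter on low counts and 3 of these were called, against 11.9% of all genes tested. Cldn11, best known from myelin and the testis barrier, fell from 3.24, 4.75, 2.39 and 3.52 CPM under the wildtype label to 0.23, 0.41, 0.56 and 0.29 CPM under the knockout label. That was 207 reads against 25 over the 4 libraries of each group, and every library labelled knockout was below every other. The log2 fold change was -3.17 ± 0.330 (SE, edgeR adjusted p = 0.000203), the largest of all claudins tested, and lay between -3.75 and -2.81 under the other settings. The level of Cldn11 was far below those of the renal members other than Cldn14, which averaged 0.65 CPM under the wildtype label.

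Cldn12, a widely expressed claudin linked to calcium passage, was at 116.4, 98.0, 110.4 and 106.2 CPM under the knockout label and at 139.1, 144.9, 142.2 and 133.1 CPM under the wildtype label. It fell by 0.38 ± 0.0695 (SE) on the log2 scale (edgeR adjusted p = 0.00601), with no overlap between the groups. Cldn6, a claudin of immature epithelia, went from 76 reads over the libraries labelled wildtype to 151 over those labelled knockout, a log2 fold change of 0.88 ± 0.233 (SE, adjusted p = 0.032 by edgeR). This call was lost in 11 of the other settings, 7 of them leaving out 1 library (adjusted p = 0.0585 to 0.0835, the highest without knockout 4). Cldn15, with the next smallest adjusted p, had a log2 fold change of -0.14 ± 0.0943 (SE, edgeR adjusted p = 0.362). The 8 genes that did not pass the filter had at most 17 reads in any library.

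Ranked per length, as mean CPM per kilobase of merged exons, Cldn2 led under the wildtype label with 208.3 ± 27.1, followed by Cldn10 with 98.7 ± 18.7 and Cldn8 with 64.8 ± 7.52 (SD, n = 4). Below these 3, Cldn7, Cldn4, Cldn19, Cldn3 and Cldn16 lay between 21.1 and 14.6, and each overlapped its neighbour in rank across libraries. Cldn1 followed at 9.34 ± 1.75 and Cldn14 at 0.30 ± 0.240. In the libraries labelled knockout Cldn8 at 89.2 ± 10.4 stood above Cldn10 at 66.1 ± 7.22, and Cldn16 at 8.51 ± 1.08 stood below Cldn1 at 12.4 ± 1.43, in each case with no overlap between the libraries of the 2 genes. Cldn7 and Cldn4 overlapped each other there too, as did Cldn3, Cldn19 and Cldn1 with the neighbour in rank. The exon lengths come from GENCODE M21 on GRCm38, not from the annotation that was counted, so levels between genes are approximate.

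As a share of the length-scaled total of the 10, Cldn8 made up 13.8% ± 1.07 under the wildtype label and 21.1% ± 2.50 under the knockout label (SD, n = 4 each). Cldn4 went from 4.27% ± 0.400 to 7.71% ± 1.39 and Cldn7 from 4.47% ± 0.404 to 7.83% ± 1.33. Cldn10 went the other way, from 21.0% ± 3.92 to 15.6% ± 0.779, and Cldn16 from 3.10% ± 0.0984 to 2.02% ± 0.297. The groups did not overlap for these 5. The share of Cldn2, at 44.3% ± 4.91 and 35.0% ± 5.09, overlapped between the groups. Shares sum to a fixed total and are given as a description, with no test.

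**Figure D4:**
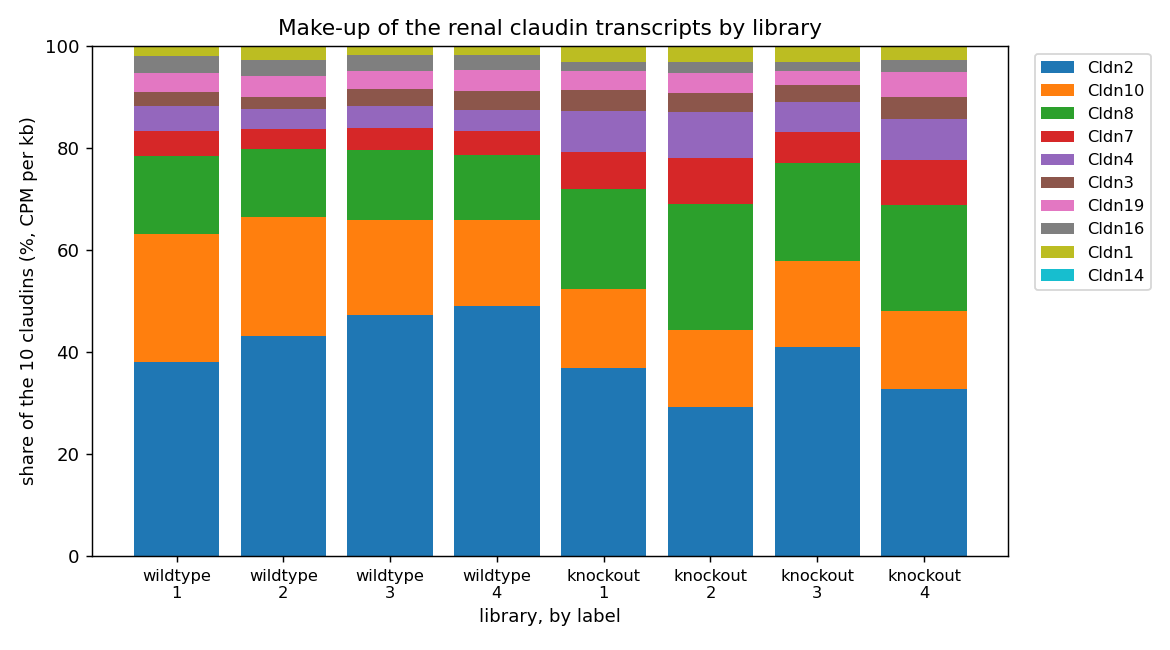
Share (y axis, %) of each claudin in the summed CPM per kilobase of the 10, by library. The Cldn8 share was 12.8% to 15.3% under the wildtype label and 19.2% to 24.7% under the knockout label.

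With 4 libraries per group, the exact test could pass a ratio after adjustment only if many of the 16 reached its smallest p, so a lack of passes says little. Of 16 log2 ratios compared within libraries, none passed after adjustment, since 3 reached the smallest exact p of 0.0286 and the adjusted value was then 0.152. These 3, Cldn16 to Cldn19, Cldn16 to the thick ascending limb markers and Cldn7 to Cldn3, were the ones whose groups did not overlap. Without knockout 3, the groups did not overlap for 7 of the 16. With limma on the same ratios and no block for replicate number, a test added after seeing the data, 2 passed. They were Cldn16 to Cldn19 (limma adjusted p = 0.0303) and Cldn16 to the thick ascending limb markers (limma adjusted p = 0.0377).

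**Figure D5:**
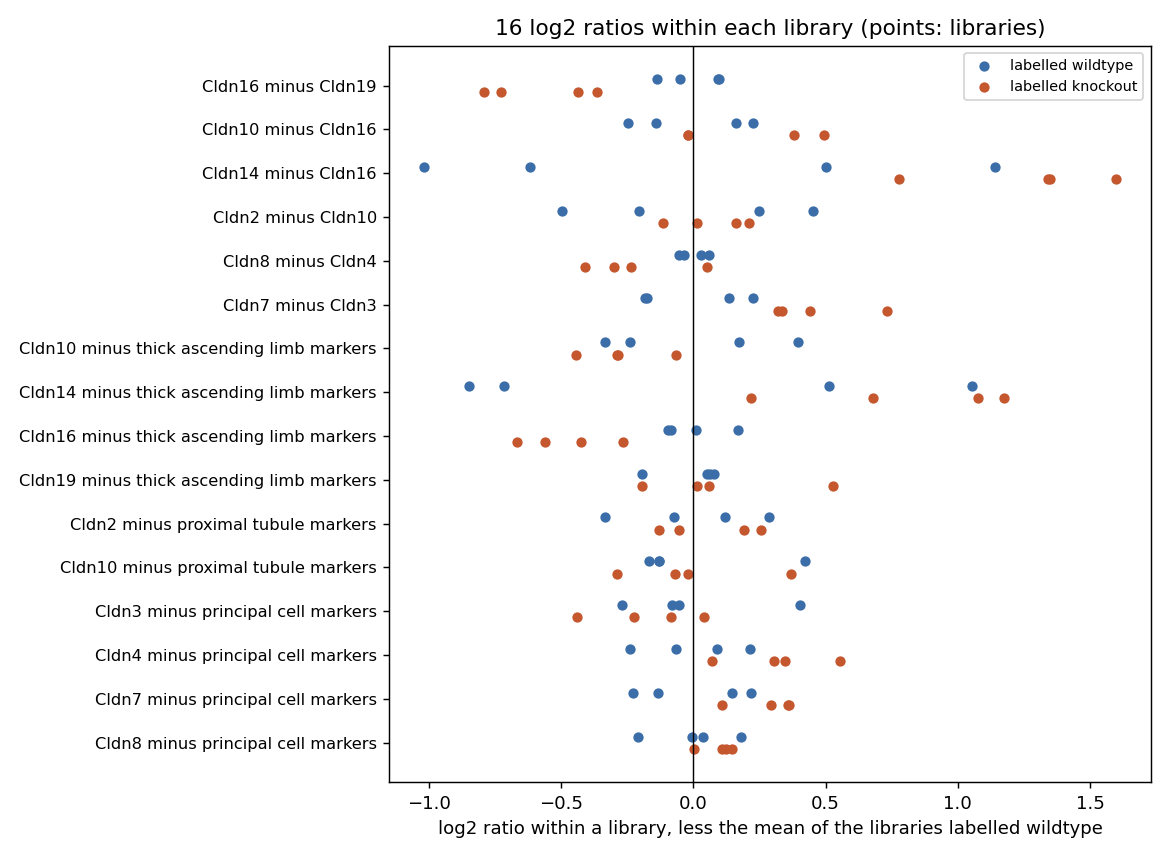
Each of 16 log2 ratios within a library (x axis, less the mean of the libraries labelled wildtype), one point per library. Cldn16 minus Cldn19 runs to the left in all 4 libraries labelled knockout, and Cldn10 minus the proximal tubule markers shows the groups on top of each other.

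Tight junctions also hold occludin-type proteins, adhesion molecules and the scaffolds that tie claudins to the cytoskeleton. Of 31 such partners tested, 4 fell and 0 rose by edgeR (2 rose at an unadjusted p under 0.05, and 0 with DESeq2 or limma voom). Called members were 12.9% of the list, near the 11.9% of all genes, with a median log2 fold change of -0.11 beside 0.00 over all genes. Mpdz, a scaffold with many PDZ domains, had -0.39 ± 0.0783 (SE, adjusted p = 0.00908), Ocln, which encodes occludin, -0.47 ± 0.102 (0.0128), the cingulin-like scaffold Cgnl1 -0.32 ± 0.0844 (0.0328) and the polarity kinase Prkcz -0.36 ± 0.0979 (0.0376). Without knockout 4, Cgnl1 and Prkcz were not called (adjusted p = 0.0947 and 0.097).

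Among 23 genes known to act on claudins or their transcription, 7 fell and 4 rose by edgeR (47.8% called, against 11.9% of all genes tested). Tfap2b itself is 1 of those that rose. Of those that fell, Wnk1, Wnk4 and Klhl3 are also on the distal convoluted tubule list and Casr is on the thick ascending limb list. Their falls are therefore counted in both places. The kinases Wnk4 and Wnk1, which phosphorylate claudins, fell by 0.61 ± 0.0866 and 0.53 ± 0.0760 (SE) on the log2 scale, and the parathyroid hormone receptor Pth1r by 0.73 ± 0.102 (edgeR adjusted p = 0.00148, 0.00158 and 0.00132). The remaining called genes are named after their values were seen. Lnx1, a ubiquitin ligase of claudins, fell by 0.89 ± 0.158, the WNK-degrading adaptor Klhl3 by 0.59 ± 0.131 and the protease Prss8 by 0.43 ± 0.120 (adjusted p = 0.00461, 0.0154 and 0.0406). Epcam, which binds and stabilises Cldn7, rose with a log2 fold change of 0.57 ± 0.0913 (adjusted p = 0.00268), the AP-2 factor Tfap2a with 0.85 ± 0.140 (0.00318), and Grhl2, an epithelial transcription factor with junction genes among its targets, with 0.40 ± 0.0944 (0.0187). Without knockout 4, Prss8 and Grhl2 were not called (adjusted p = 0.0905 and 0.0575).

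Several claudins lie next to each other in the genome, and the calls of adjacent tested claudins differed. Whether the changes of neighbours differed from each other was not tested. On chromosome 16, Cldn1 (log2 fold change 0.42, not called) and Cldn16 (-0.78) are adjacent protein-coding genes 91.3 kb apart on opposite strands in GRCm38. Cldn16 is followed after 20.9 kb by Tmem207, a thick ascending limb gene that rose by 0.27 ± 0.0698 (SE) on the log2 scale (edgeR adjusted p = 0.0273). This call was lost in 8 of the 18 other settings, among them those without knockout 2, knockout 4, wildtype 3 or wildtype 4 (adjusted p = 0.0680, 0.0673, 0.0768 and 0.0783). On chromosome 5, Cldn4 (0.69) and Cldn3 (0.16, not called) are adjacent at 39.3 kb on opposite strands. Over all 10 members, 17 of 20 protein-coding neighbours were tested, of which 4 rose and 2 fell, against 6.23% and 5.7% of all genes. These 6 include the members Cldn4 and Cldn16 themselves, each the neighbour of another claudin.

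Within groups, after subtracting each group's mean log2 CPM over the 8 libraries, Cldn4 and Cldn7 were the pair of members most alike (Pearson r = 0.88), and Cldn1 and Cldn3 the most opposed (r = -0.91). Cldn4 and Cldn8 had r = 0.72 and Cldn7 and Cldn8 r = 0.74, whereas Cldn16 and Cldn19 had r = 0.58 and Cldn2 and Cldn10 r = -0.04. Among 12410 genes ranked, those closest to Cldn16 were Etf1, Pdrg1 and Cpsf2 (r = 0.997, 0.996 and 0.991), and those closest to Cldn8 were Nck1, Dbndd2 and Lcmt1 (0.986, 0.963 and 0.958). For Cldn2 they were Tanc2, Mb21d2 and Atrnl1 (0.982, 0.982 and 0.973), for Cldn7 Rnf215, Spink8 and Rnd2 (0.986, 0.985 and 0.982), and for Cldn10 Coq8a, Cetn2 and Hba-a2 (0.974, 0.971 and 0.969). Hba-a2, a haemoglobin gene, stood at 65.5, 36.8, 15.8 and 16.1 CPM under the wildtype label and at no more than 0.168 CPM under the knockout label, and its part in the level of Cldn10 was not tested. For Cldn4 the closest were Adipoq, Plin1 and Prkar1a (0.998, 0.982 and 0.971). Adipoq and Plin1 are fat cell genes, and Adipoq stood at 32.8, 59.2, 14.2 and 30.4 CPM under the knockout label and 50.02, 12.1, 21.7 and 26.5 CPM under the wildtype label. Adipoq thus varied several-fold within each group but was not called between them (log2 fold change 0.31, edgeR adjusted p = 0.761), and its part in the level of Cldn4 was not tested. These correlations share libraries and scaling, and rest on 8 points each, from which 2 group means were subtracted. The closest genes are the top 3 picked from 12410, a choice that by itself favours high values. All are a description only.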

How the data were processed

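Per the labels' protocols, whole-kidney RNA was extracted with Trizol and made into directional libraries. The tools named per the submitters' processing notes are STAR, HTSeq and edgeR, and the build is mm9. Their versions and the annotation are not stated. The deposited values are whole-number counts of reads per gene, 1 file per library, named as not stranded, so that reads of either strand count alike. Antisense genes are annotated in GENCODE M21 over 40 bases of Cldn3 and 90 of Cldn19 exons. Whether reads there were counted for the claudin or set aside as ambiguous was not checked. A gene received 63.8% to 69.1% of records, and summary rows (13.0% to 16.8% no feature, 2.17% to 2.42% ambiguous, 15.4% to 17.9% not unique) were left out. Symbols matched 32860 of 37583 rows.

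Counts were filtered with filterByExpr (15228 genes kept), scaled by TMM and tested two-sided by quasi-likelihood in edgeR (R 4.3.3, edgeR 4.0.16, limma 3.58.1, DESeq2 1.42.0), with p-values adjusted over all genes. Ratios were taken on log2 CPM (prior count 2), with exact permutation over 70 assignments. Libraries of 1 group were distinct (chi-square per degree of freedom 9.72 to 24.8). On simulated data for this comparison (15228 genes), edgeR recovered 68% of 50 genes changed 1.5-fold, 76% of those changed 2-fold and 98% of those changed 4-fold. Of its calls there, 5.56% were false. The simulation changed far fewer genes than the 1817 called in the data, so these rates need not carry over. Members, lists and most settings were chosen with earlier results of these data known. Named genes are the 10 members, up to 4 genes with the smallest adjusted p in each list described by gene, other claudins that passed, Tfap2b, called regulators beyond these 4 and Tmem207 (named after their values were seen), and for likeness the 3 genes with the highest group-centred correlation. Likeness is given for the 6 members that were called. Other settings were DESeq2, DESeq2 size factors, library totals, upper quartile factors, limma voom, no filter, a minimum of 1 CPM in 4 libraries, adjusted p under 0.01 or 0.1, the replicate number as a block, and leaving out each library. The clock score as covariate, the omission of knockout libraries 1 and 4, and limma on the ratios without the replicate block were added after seeing the data.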

Additional observations from a re-analysis of the deposited data

Results flagged for a closer look

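In 66 groups of 4 values (CPM of the tested claudins and the ratios within libraries), 1 library stood apart in 3, its distance to the nearest value taking up most of the whole range of the group. Chance gives about 1 in 20. Knockout 3 was highest for Cldn10 CPM (0.9084), and without it Cldn10 had a log2 fold change of -0.66 (edgeR adjusted p = 0.0132). Wildtype 3 was lowest for Cldn19 minus the thick ascending limb markers (0.9122). Wildtype 1 was highest for Cldn10 minus the proximal tubule markers (0.9333).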

How the results depend on the processing

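Every member kept its direction under the 18 other settings (17 for Cldn14). The count of all genes called, 1817 as reported, was 1094 with a replicate block, 912 without knockout libraries 1 and 4, 758 with the clock term, 706 at a threshold of 0.01, 2850 at 0.1 and 1076 to 1940 when 1 library was left out. Of the 10 claudins, 6 as reported, 2 were called without knockout libraries 1 and 4 (1 rose, 1 fell), 2 with the clock term (0 rose, 2 fell) and 3 at a threshold of 0.01 (2 rose, 1 fell). Leaving out 1 library gave 4 to 6 called, 3 to 4 rising and 1 to 3 falling. Over the other claudins, junction partners and regulators, 18 calls became 3 with the clock term and 13 to 18 without 1 library. For the ratios, 5 passed in limma with the replicate block and 2 without it, against 0 by the exact test, whose smallest p limits what can pass. Scaling by totals alone shifted the median over all genes from 0.00 to 0.11 (log2) and the upward share of calls from 52.2% to 76.5%.

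Replicate numbers did not pair the libraries (same-number correlations -0.215, -0.210, -0.0527 and 0.157), and with the replicate block Cldn8 (adjusted p = 0.0681) and Cldn2 (0.0517) were not called. Depth limits Cldn14 and the other claudins with few reads.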
